A study of Mus musculus with 12 samples.

Results

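The intact left gastrocnemius, a calf muscle made mostly of fast fibres, was compared between 2 inbred mouse strains, BALB/c and C57BL/6. All mice were male and wild type. In each of them the sciatic nerve of the right leg had been cut and its ends turned back and sutured to muscle, and muscle was taken 2 weeks after surgery, so every left muscle came from an animal whose other leg was denervated. By its label the left leg was healthy; whether its nerve was exposed in the sham operation that the protocol describes is not stated. The 6 left-leg libraries (3 per strain) of the 12 libraries in the series were used, and the 6 right-leg libraries entered only where the left difference was set beside the right one. Genes were kept where both strains' tables listed the same transcript and length and the mean over the 6 left libraries was at least 1 RPKM (reads scaled by transcript length and library size). That left 9410 of the 25094 listed genes, 9009 of them protein-coding; 14220 lay below 1 RPKM and 567 more reached it but were listed with another transcript in each table.

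The deposited values are scaled to totals of 18132620 to 18972400 reads in the left libraries, of which 14826934 to 16463938 lay in listed genes. The tables of the 2 strains were normalized separately, and the 6 columns were rescaled together here by the median-of-ratios method, so strain and table cannot be told apart. No label gives a date or batch of extraction or sequencing, and separate mice are not stated for the 3 libraries of a group: p-values here reflect the spread between these libraries alone, which may be technical. The C57BL/6 libraries correlated at 0.987 to 0.991 with each other, the BALB/c libraries at 0.968 to 0.985, and libraries of different strains at 0.907 to 0.962 (Pearson's r across genes, which are not independent). The lowest values across strains were those of BALB/c library 2. In bulk muscle, fewer cells of a type and less RNA per cell cannot be told apart.

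Mammalian muscle fibres are slow or fast according to the myosin heavy chain they carry. Slow fibres use the heavy chain of Myh7 together with slow troponins, tropomyosin and light chains, and work mainly by oxidation, whereas fast fibres run from the oxidative type with Myh2 through Myh1 to the glycolytic type with Myh4. The muscle is held together by collagen-rich connective tissue made by fibroblasts, and is joined to bone by tendon, whose cells express tenomodulin and small proteoglycans.

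The labelled tissue and leg were checked first. All 10 skeletal muscle markers were tested, and skeletal α-actin, Acta1, lay between 26290 and 39290 rescaled RPKM in the 6 libraries. Chrng, the fetal acetylcholine receptor subunit that denervated muscle makes again, had 0, 5 and 1 reads in the left BALB/c libraries and 4, 1 and 2 reads in the left C57BL/6 libraries. In the right legs its deposited level was 71.6 to 133.3 RPKM in BALB/c and 151.1 to 159.4 RPKM in C57BL/6, so each library carried the mark of its labelled leg. Chrna7, which encodes the α7 acetylcholine receptor subunit, had at most 3 reads in any left library and was not tested.

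Between the strains, 2826 of the 9410 genes (30.0%) were called at an adjusted p under 0.05 with limma's moderated test on log2(rescaled RPKM + 0.5). Of these, 1532 (16.3%) were higher in BALB/c and 1294 (13.8%) were lower, and the median gene differed by -0.003. Counts of called list members given below are to be set against these 2 shares. The split depended on the scaling: 54.2% of the called genes were higher in BALB/c here, 73.3% with the RPKM values as deposited, 84.5% with columns scaled to the same sum and 46.2% with quantile normalization, for which the median gene lay at 0.127, 0.239 and -0.060. The number of calls fell to 1773 without BALB/c library 3 and to 1518, 1651 and 1537 without C57BL/6 library 1, 2 or 3. A stricter set, called, at least 2-fold apart and with no overlap between the groups, held 615 genes (6.54%), 461 higher in BALB/c (4.90%) and 154 lower (1.64%). Of these conditions the lack of overlap removed few genes: the groups did not overlap for 2817 of the 2826 called genes. They did not overlap for 4706 of all 9410 tested genes either. Separate groups, where named for a gene below, therefore add little to its call. Calls came from all chromosomes: on the autosomes and X, 26.3% to 32.8% of the tested genes were called.

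**Figure D1:**
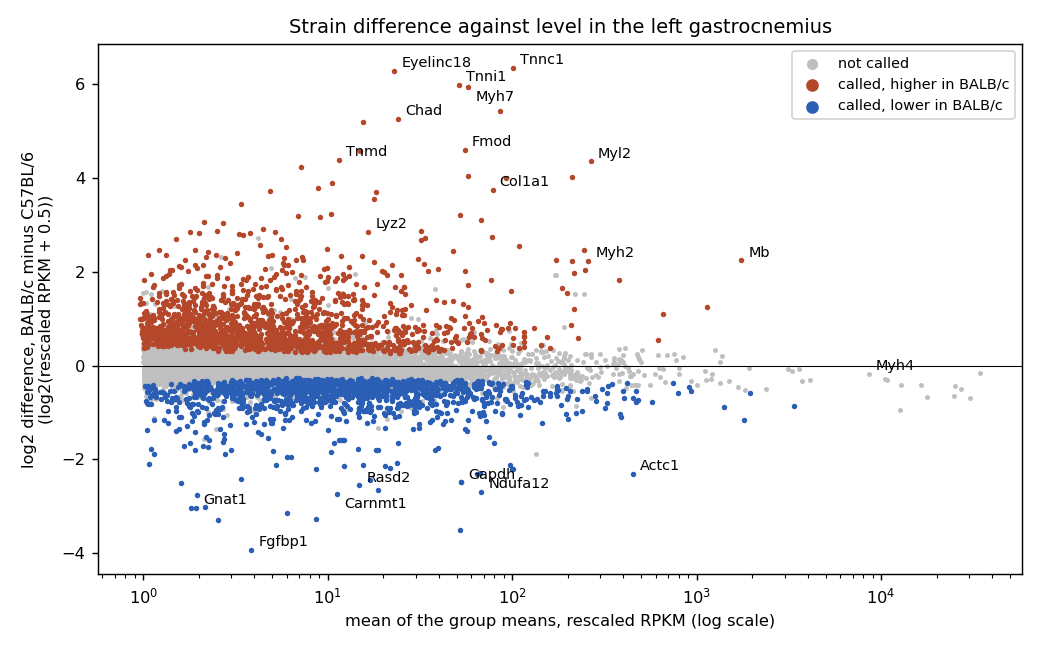
Each point is 1 of the 9410 tested genes. The x axis is the mean of the 2 group means in rescaled RPKM on a log scale and the y axis the log2 difference, BALB/c minus C57BL/6, with called genes coloured by direction. The slow troponins Tnnc1 and Tnni1, Myh7 and Eyelinc18 stand highest at about 6, and Fgfbp1 stands lowest at -3.94.

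Slow-fibre genes were higher in BALB/c as a group. Of 16 listed sarcomere and calcium-handling genes of slow fibres 14 were tested, 13 were called higher in BALB/c and none lower, against 16.3% of all genes called higher. The group's median log2 difference was 3.0, with the median of all genes at 0. Casq2 was the tested member that was not called, and the other two, Mybpc1 and the slow troponin T gene Tnnt1, were not tested. The summed level of the list was 978.4, 3953 and 3568 RPKM in BALB/c libraries 1, 2 and 3 and 241.4, 432.0 and 230.4 RPKM in C57BL/6. BALB/c library 1 lay between the other BALB/c libraries and the C57BL/6 libraries.

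The promoters of the 2 slow troponin genes that differed most are shown because their transcripts moved together; the stretches are the 250 bases before the RefSeq start site in GRCm38.p6, at chr14:31208062-31208311 (plus strand) and chr1:135799171-135799420 (plus strand), the first of 2 starts listed for Tnni1. Capitals mark the E-box letters CANNTG, searched on both strands.
Tnnc1: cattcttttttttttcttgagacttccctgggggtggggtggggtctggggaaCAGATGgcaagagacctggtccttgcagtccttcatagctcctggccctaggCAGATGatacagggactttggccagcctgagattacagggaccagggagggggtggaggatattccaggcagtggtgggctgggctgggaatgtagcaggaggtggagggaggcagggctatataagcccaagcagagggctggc
Tnni1: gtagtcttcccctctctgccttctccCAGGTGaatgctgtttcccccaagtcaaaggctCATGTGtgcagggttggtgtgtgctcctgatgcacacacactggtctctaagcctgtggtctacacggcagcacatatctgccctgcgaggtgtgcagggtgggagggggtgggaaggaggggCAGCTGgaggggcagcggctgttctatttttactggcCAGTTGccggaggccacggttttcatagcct
The search found 2 E-boxes in the Tnnc1 stretch and 4 in that of Tnni1, and 66.0% of 27025 RefSeq promoters of this length hold at least 1. Neither stretch holds a match to the MEF2 site, present in 3.01% of the promoters, or to the CArG box, present in 1.40%. These are matches of letters only.

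Tnnc1, which encodes the calcium-binding troponin C of slow and cardiac muscle (NM_009393, mm9 chromosome 14, 32021498 to 32024915), was at 32.8, 264 and 303 RPKM in the BALB/c libraries and at 4.42, 0.235 and 0.864 RPKM in the C57BL/6 libraries. The log2 difference was 6.35 ± 0.95 (SE; limma, adjusted p = 0.00356). Every BALB/c library was above every C57BL/6 library, and C57BL/6 library 1 was the highest of its group, as it was for Tnni1 and Myh7. Tnni1, the slow inhibitory troponin, was at 17.1, 149 and 138 RPKM in BALB/c and 1.45, 0.164 and 0.600 RPKM in C57BL/6, a difference of 5.99 ± 0.81 (limma, adjusted p = 0.00244). Myh7, the slow myosin heavy chain, was at 17.4, 173 and 154 RPKM in BALB/c and 2.47, 0.168 and 0.531 RPKM in C57BL/6, a difference of 5.95 ± 0.90 (limma, adjusted p = 0.00376). Its position overlaps the antisense transcript Mhrt and reads were counted on both strands, so the pair cannot be separated. Within BALB/c, libraries 2 and 3 held several times more of these transcripts than library 1.

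The slow light chains were also lowest in library 1 within BALB/c, while the order of the C57BL/6 libraries differed. Myl2 was at 117, 702 and 719 RPKM in BALB/c and at 20.8, 25.1 and 12 RPKM in C57BL/6 (log2 difference 4.36 ± 0.67; limma, adjusted p = 0.00393). Myl3 differed by 4.01 (adjusted p = 0.00888) and the slow tropomyosin gene Tpm3, of whose 50-base words 23.2% occur in other genes, by 5.43 (adjusted p = 0.00395). Myh6, the cardiac α heavy chain that lies beside Myh7, was at 4.57, 43.7 and 44.2 RPKM in BALB/c and at or below 0.111 RPKM in each C57BL/6 library (5.21 ± 0.76; adjusted p = 0.00322). Myoz2 and Csrp3, both Z-disc proteins, differed by 3.12 and 2.88. Atp2a2, the calcium pump of slow fibres, was at 14.9, 83.6 and 84.1 RPKM against 8.5, 5.65 and 6.38 RPKM (2.72 ± 0.61; adjusted p = 0.0156), and its call was lost without BALB/c library 3 or without C57BL/6 library 3. Tnnc1, Tnni1, Myh7, Tpm3, Myh6 and Myl2 kept their calls in all alternatives that tested them. Of 6 genes fixed as markers of adjoining oxidative muscle, all of them slow-fibre genes too, 5 were tested and called higher, with summed levels of 271.5 to 1982 RPKM in BALB/c and 40.9 to 58.8 RPKM in C57BL/6. What part muscle dissected along with the gastrocnemius has in the slow-fibre difference was not tested.

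Among the fast-fibre genes the oxidative heavy chains differed and the glycolytic one did not pass the test. Myh2 was at 248, 697 and 350 RPKM in BALB/c and 63.6, 115 and 78.3 RPKM in C57BL/6 (2.23 ± 0.38; limma, adjusted p = 0.00568). Myh1 was at 470, 886 and 415 RPKM against 106, 263 and 138 RPKM (1.83 ± 0.38; adjusted p = 0.0126; lost without C57BL/6 library 3), and it overlaps the antisense transcript Myhas. Myh4, by far the most abundant heavy chain, was at 9673, 6342 and 8309 RPKM in BALB/c and 9447, 8598 and 9064 RPKM in C57BL/6, and the groups overlapped (-0.18 ± 0.19; adjusted p = 0.516). Of the 17 fast-fibre genes, all tested, 2 were higher, 1 was lower and 14 were not called, with a median of -0.44. The lower one was Actn3, the fast-fibre α-actinin, at 2818, 1701 and 2787 RPKM against 4614, 4228 and 4190 RPKM (-0.87 ± 0.22; adjusted p = 0.0217). Its call was lost without any 1 of the C57BL/6 libraries, and without BALB/c library 1 the count of fast-fibre genes called lower was 9.

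Mb, which encodes myoglobin, the oxygen store of oxidative fibres, was at 2074, 4105 and 2475 RPKM in BALB/c and 438.8, 741.3 and 608.7 RPKM in C57BL/6 (2.24 ± 0.29; limma, adjusted p = 0.00206). The same libraries that were highest in Myh2 were highest in Mb. Genes of the citrate cycle and fatty acid oxidation were higher for 13 of 45 tested and lower for none, with a median of 0.34, led by Lpl, which frees fatty acids from lipoproteins (2.03), Idh2, a mitochondrial isocitrate dehydrogenase (1.60), and Fabp3, a fatty acid carrier (1.55). That count was 20 with columns scaled to the same sum and 3, 4 and 5 without C57BL/6 library 1, 2 or 3. Across all tested genes 16.3% were called higher and 13.8% lower. Subunits of oxidative phosphorylation did not move one way: 7 of 74 were higher and 15 lower here, 11 and 7 with the deposited scaling, and 20 and 4 with columns scaled to the same sum. Ndufa12, a complex I subunit, was the lowest of them at 18.3, 17.0 and 17.9 RPKM against 104, 117 and 133 RPKM (-2.69 ± 0.11; adjusted p = 2.52e-05).

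**Figure D2:**
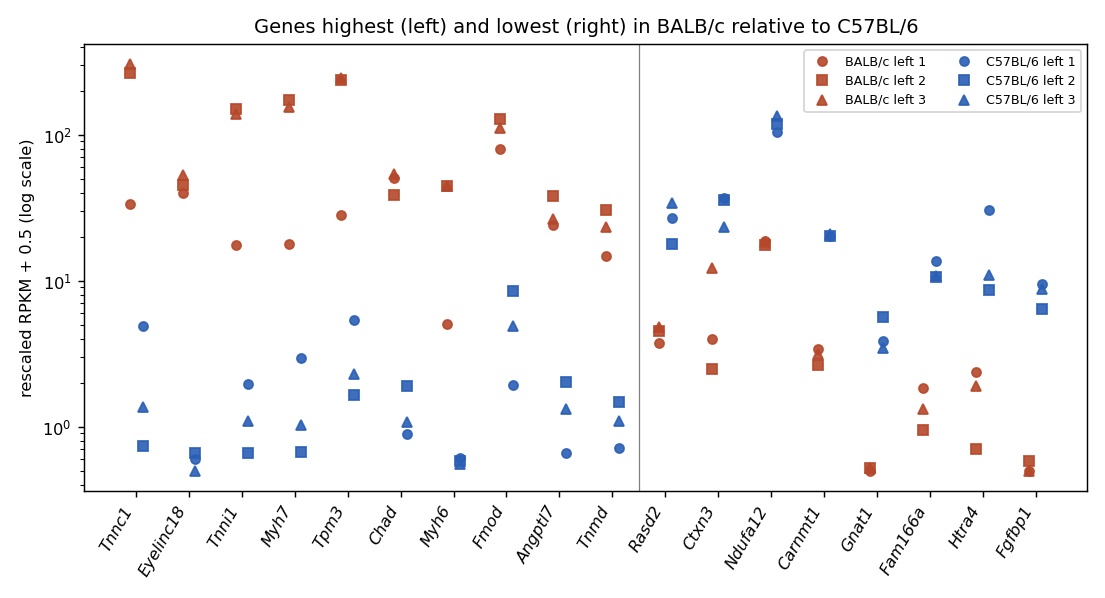
Values of the 10 genes highest and of 8 of the 10 lowest in BALB/c relative to C57BL/6 among genes called without overlap, as rescaled RPKM + 0.5 on a log axis, with 1 symbol per left-leg library. BALB/c library 1 lies below libraries 2 and 3 for Tnnc1, Tnni1, Myh7, Tpm3 and Myh6, while the BALB/c libraries lie close together for Eyelinc18 and Chad.

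Genes of tendon and connective tissue were higher in BALB/c, with closer values among its libraries than the slow-fibre genes had. Of 12 tendon and cartilage markers 8 passed the filter and 7 were called higher, with a median of 4.01. Of 40 matrix genes 33 passed and 31 were called higher, with a median of 1.70, and none was lower. Of all genes 16.3% were called higher. The filter takes the mean over both strains, so in these lists and the others it admits genes that are high in 1 strain only. Scx, a transcription factor of tendon cells, passed but was not called, at 4.04, 5.25 and 7.12 RPKM against 4.20, 4.11 and 4.06 RPKM (adjusted p = 0.182).

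Chad encodes chondroadherin, a matrix protein of cartilage and tendon (NM_007689, mm9 chromosome 11, 94426361 to 94430441, overlapping Acsf2). It was at 49.8, 38.0 and 53.4 RPKM in BALB/c and 0.397, 1.41 and 0.569 RPKM in C57BL/6 (5.27 ± 0.27; limma, adjusted p = 6.54e-05). Comp, a cartilage matrix protein also found in tendon, was at 11.8, 15.3 and 15 RPKM against 0.276, 0.279 and 0.256 RPKM (4.23 ± 0.12; adjusted p = 5.46e-06). Neither gene's groups overlapped, and Comp was nearly level within each strain. Fmod, the collagen-binding proteoglycan fibromodulin, was at 79.2, 127 and 111 RPKM against 1.42, 7.96 and 4.40 RPKM (4.6 ± 0.48; adjusted p = 0.000933). Tnmd, tenomodulin, was at 14.3, 29.9 and 22.8 RPKM against 0.210, 0.979 and 0.596 RPKM (4.39 ± 0.32; adjusted p = 0.000242). For both, C57BL/6 library 1 was the lowest of its group, whereas it was the highest for Tnnc1, Tnni1 and Myh7.

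The type I collagen genes moved together. Col1a1 was at 122, 144 and 173 RPKM in BALB/c and at 9.83, 12.2 and 9.02 RPKM in C57BL/6 (3.75 ± 0.16; limma, adjusted p = 2.52e-05). Col1a2 was at 150, 193 and 179 RPKM against 9.27, 13.0 and 9.26 RPKM (4.0 ± 0.16; adjusted p = 2.52e-05). Col3a1 differed by 2.17 and Sparc, which binds collagen, by 2.23. Markers of fibroblasts and fibro-adipogenic progenitors were called higher for 10 of 11 tested, among them Dcn, the proteoglycan decorin (2.25), Pi16 (2.49), Lum (1.98) and Pdgfra (1.09). Their summed level was 684.8, 926.0 and 742.8 RPKM in BALB/c and 158.5, 288.4 and 229.8 RPKM in C57BL/6. The summed tendon level was 212.5 to 327.2 RPKM against 15.9 to 24.7 RPKM; of its cartilage members Acan was at 0 in all C57BL/6 libraries, with 2 reads in each BALB/c library, and Col2a1 stayed below 0.464 RPKM in all 6. The part that attached tendon or connective tissue has in the slow-fibre difference, or in any other, was not tested.

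Immune, vessel and fat markers were also higher. All 7 of the 17 macrophage markers that passed the filter were called higher, with a median of 2.09: Lyz2, lysozyme of myeloid cells, was at 27.3, 35.3 and 25.4 RPKM against 2.63, 5.33 and 3.25 RPKM (2.85 ± 0.23; limma, adjusted p = 0.000368), and the complement genes C1qa and C1qc differed by 2.24 and 2.26. The filter takes the mean over both strains, so markers high in BALB/c alone pass it. Csf1r did so, at 3.79, 5.96 and 3.84 RPKM against 0.661, 0.858 and 0.480 RPKM. The count of 7 is therefore partly set by the filter. Over all 17 markers, passed or not, the summed macrophage level was 70.9 to 106 RPKM in BALB/c and 12.9 to 16.6 RPKM in C57BL/6. This sum is no check on the filter, because it comes largely from markers that passed, such as Lyz2, C1qa and C1qc. It also takes in Cd68 and Fcgr3, which are listed with another transcript in each table. No neutrophil or lymphocyte marker reached the filter, and those lists summed to at most 1.62 and 0.948 RPKM. Endothelial markers were called higher for 8 of 12 tested, against 16.3% of all genes, with a smaller median of 0.57. Kdr, the main vascular endothelial growth factor receptor, differed by 1.00. Adipocyte genes differed most in BALB/c library 2: Adipoq, the fat hormone adiponectin, was at 3.50, 32.2 and 15.8 RPKM against 1.13, 1.83 and 0.274 RPKM (3.17 ± 0.73; adjusted p = 0.0176). Of 8 adipocyte genes 4 were higher and Car3, a carbonic anhydrase that muscle also makes, was lower (-1.16); the higher count was 0 without BALB/c library 3 or C57BL/6 library 1 or 3, and 7 without BALB/c library 1.

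Nerve and blood markers set single libraries apart. The 14 Schwann cell and nerve genes summed to 49.3, 153 and 95.9 RPKM in BALB/c and to 209, 7.50 and 26.6 RPKM in C57BL/6, and the groups overlapped. C57BL/6 library 1 thus had the highest sum of all and library 2 the lowest. Of 5 tested Schwann cell genes 0 were called with limma, 0 had an unadjusted p under 0.05 and 0 were called with limma-voom on the recovered reads; 2 were called higher in BALB/c without C57BL/6 library 1. The haemoglobin gene Hba-a1, which shares 72.3% of its 50-base words with other genes, was at 488, 598 and 74.3 RPKM against 64.2, 133 and 105 RPKM and was not called. Its high values came from BALB/c libraries 1 and 2. Of 6 tested red cell genes 2 were called higher, the β-globin genes Hbb-b2 and Hbb-bt, which are listed over the same reads: both were at 54.5, 38.6 and 25.9 RPKM against 9.11, 18.9 and 8.96 RPKM, with no overlap (1.67 ± 0.34; limma, adjusted p = 0.0117).

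**Figure D3:**
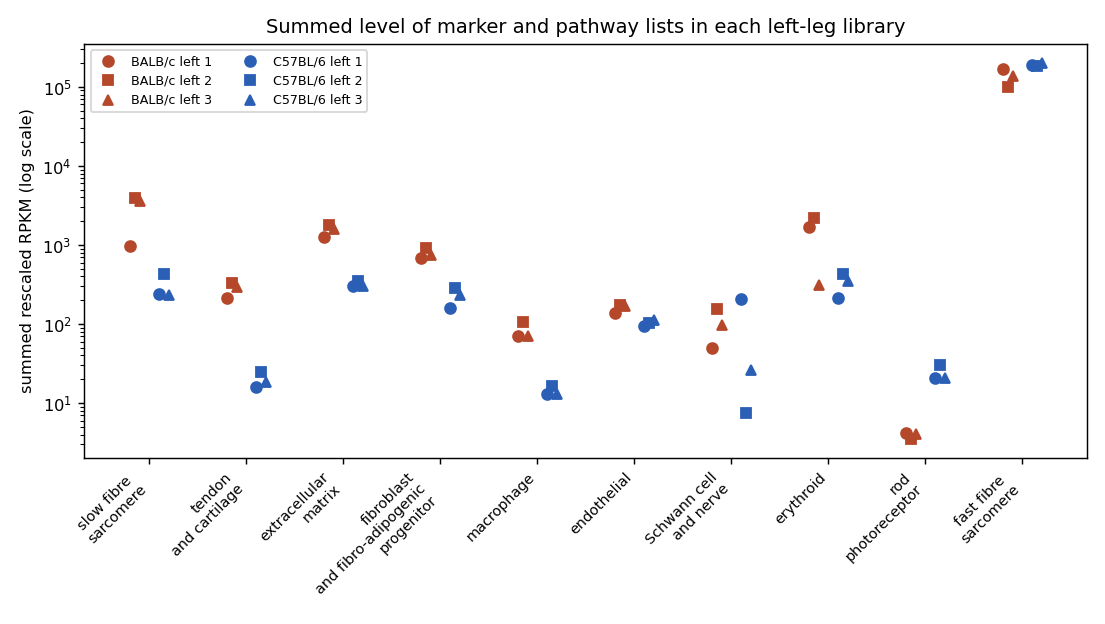
Summed rescaled RPKM of 10 gene lists in each left-leg library, on a log axis, with 1 symbol per library. Tendon, matrix, fibroblast, macrophage and slow-fibre sums are higher in all BALB/c libraries, rod photoreceptor sums are higher in all C57BL/6 libraries, and Schwann cell and erythroid sums overlap between the strains.

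Genes higher in C57BL/6 were fewer at 2-fold or more, and many resemble other genes in sequence. Of the 154 in the stricter set, 31.8% have at least 10% of their 50-base words in another gene's transcripts, compared with 17.2% of the 453 higher genes with a value and 20.0% of the genes not called. Some genes named above as higher share words too: Myh7 20.0%, Myh6 20.2%, Myh2 24.6%, Myh1 30.5%, Mb 24.9% and Fabp3 37.3%. Tnnc1 shares 0%, Tnni1 0.38% and Myl2 0.86%. Ndufa12, which was lower, shares 17.7%. Reads from such copies cannot be told apart, and what this does to the differences was not tested. Whether reads of both strains aligned equally well to the reference genome was not tested either. When genes sharing 10% or more and genes with no value, such as Eyelinc18, were left out, 480 of the 615 genes remained.

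Fgfbp1, a secreted carrier of fibroblast growth factors (NM_008009, mm9 chromosome 5, 44370097 to 44373038), shares no words with other genes. It was at 0, 0.0826 and 0 RPKM in BALB/c and at 8.94, 5.87 and 8.21 RPKM in C57BL/6, or 2 against 493 reads, a ratio of 265 (exact 95% Poisson interval 73.0 to 2200, counting error only). The fitted log2 difference was -3.94 ± 0.17 (limma, adjusted p = 2.52e-05). In the right legs its level was at 0 in all BALB/c libraries and 0.351, 0.178 and 0.182 RPKM in C57BL/6, so the gene was low in denervated muscle of both strains. Its promoter is shown, chr5:43981800-43982049 (minus strand), with E-boxes in capitals (2 matches).
Fgfbp1: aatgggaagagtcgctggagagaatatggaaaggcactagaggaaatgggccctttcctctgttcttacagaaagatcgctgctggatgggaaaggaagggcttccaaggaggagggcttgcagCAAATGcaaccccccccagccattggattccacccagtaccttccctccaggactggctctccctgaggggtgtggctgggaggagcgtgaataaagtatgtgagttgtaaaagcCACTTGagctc

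Actc1, cardiac α-actin, which muscle makes before birth and which is known to rise in regenerating muscle, was at 150, 104 and 210 RPKM in BALB/c and at 620, 734 and 896 RPKM in C57BL/6 (-2.32 ± 0.26; limma, adjusted p = 0.00114). Myl4, the atrial and embryonic light chain, was at 4.76, 5.76 and 7.27 RPKM against 18.7, 20.2 and 16.9 RPKM (-1.58 ± 0.15; adjusted p = 0.000662). Both were lower in every BALB/c library. In the other direction Myh3, the embryonic heavy chain, was at 3.93, 4.75 and 4.75 RPKM against 1.12, 0.942 and 1.03 RPKM (1.70 ± 0.12; adjusted p = 0.000179). Of 18 tested denervation and developmental genes 3 were higher and 3 lower, close to the 16.3% and 13.8% of all genes; 6 were higher without BALB/c library 1. The stretch before the Actc1 start, chr2:114052876-114053125 (minus strand), holds 1 CArG box, the binding sequence of serum response factor, in capitals:
Actc1: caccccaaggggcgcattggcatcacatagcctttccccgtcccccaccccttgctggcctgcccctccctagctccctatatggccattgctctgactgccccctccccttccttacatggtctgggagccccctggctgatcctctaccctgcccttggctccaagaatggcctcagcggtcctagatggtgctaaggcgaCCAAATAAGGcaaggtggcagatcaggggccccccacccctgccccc

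Carnmt1, carnosine N-methyltransferase, was at 2.93, 2.16 and 2.66 RPKM in BALB/c and 19.8, 19.8 and 20.2 RPKM in C57BL/6 (-2.74 ± 0.11; limma, adjusted p = 2.52e-05), with 21.7% of its words shared. Gapdh, a glycolytic enzyme often used as a reference gene, was at 22.3, 9.55 and 17.3 RPKM against 92.8, 80.6 and 95.8 RPKM (-2.49 ± 0.27; adjusted p = 0.00104), with 25.1% shared. The glycolytic enzyme genes Aldoa and Eno3 were at 11740 to 19230 and 3195 to 3944 RPKM in the same libraries. Why so few reads were counted for Gapdh, and what this does to its difference, was not tested. Glycolysis and glycogen genes as a list did not follow Gapdh: 4 of 31 were higher and 5 lower, close to the 16.3% and 13.8% of all genes. Rasd2, a Ras-like GTPase with 0.320% of words shared, was at 3.24, 4.01 and 4.32 RPKM against 26.4, 17.4 and 33.5 RPKM (-2.55 ± 0.22; adjusted p = 0.000513). Proteasome subunits were lower for 11 of 31 and higher for 1, and the lower count was 7 with the deposited scaling, 4 with columns scaled to the same sum and 3 without any 1 C57BL/6 library.

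Antioxidant, stress and upkeep genes differed in part. Glutathione and detoxification enzymes were higher for 12 of 41 tested and lower for 3, with a median of 0.08; Sod3, the extracellular superoxide dismutase, was at 3.96, 9.08 and 7.89 RPKM against 2.06, 1.70 and 1.48 RPKM (1.67 ± 0.27; limma, adjusted p = 0.00487). Gstp1, a glutathione transferase with 33.7% of its words shared, was at 41.4, 33.8 and 39.8 RPKM against 118, 92.0 and 125 RPKM (-1.52 ± 0.14; adjusted p = 0.000662). The higher count was 3, 6 and 3 without C57BL/6 library 1, 2 or 3. Across all tested genes 16.3% were called higher and 13.8% lower. A list of immediate early and handling stress genes, which includes heat shock genes, had 6 of 18 higher and 1 lower, the chaperone gene Hsph1 (-0.75). Egr1, an immediate early transcription factor, was at 8.43, 20.4 and 6.29 RPKM against 1.51, 4.68 and 1.66 RPKM (1.94 ± 0.48; adjusted p = 0.0223; lost without C57BL/6 library 1 or 3). That list's higher count was 12 without BALB/c library 1 and 2 without C57BL/6 library 1.

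Excitation-contraction coupling genes were lower for 5 of 25 and higher for 1, the slow pump Atp2a2, against 13.8% and 16.3% of all genes. Among the lower ones Jph2, junctophilin, which holds the tubule and reticulum membranes together, was at 178, 143 and 185 RPKM against 255, 232 and 248 RPKM (-0.55 ± 0.12; limma, adjusted p = 0.0169). Its call was lost without C57BL/6 library 1 or 3 and with columns scaled to the same sum. Cytosolic ribosomal proteins were higher for 5 of 50 and lower for 12; with columns scaled to the same sum these counts were 15 and 4, and among genes with little shared sequence 0 and 2. Circadian clock genes had 2 of 16 lower and none higher: Bhlhe41, a clock repressor, was at 11.8, 8.20 and 11.8 RPKM against 20.4, 16.4 and 18.5 RPKM (-0.78 ± 0.16; adjusted p = 0.0110). Atrophy-related ubiquitin ligases had 1 of 18 lower, Asb5 (-0.76; adjusted p = 0.0223; lost without any 1 C57BL/6 library), and none higher. Both counts lie under the 13.8% of all genes called lower.

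Transcripts of retinal rods were found in the C57BL/6 muscle libraries. Gnat1, rod transducin, was at 0, 0.0216 and 0.0229 RPKM in BALB/c and 3.35, 5.17 and 2.95 RPKM in C57BL/6, or 0, 1 and 1 reads against 138, 210 and 120 reads (-3.04 ± 0.19; limma, adjusted p = 0.000156). Every C57BL/6 library was far above every BALB/c library. Of a list of 21 rod genes, drawn up after these genes had been seen, 3 passed the filter and were lower in BALB/c, and 8 were at 0 in all BALB/c left libraries and none in all C57BL/6 ones. Their summed level was 4.19, 3.52 and 4.03 RPKM against 20.9, 30.4 and 21.0 RPKM. Of 14 lens crystallins 10 were at 0 in all 6 libraries. Which material these reads came from was not tested.

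Eyelinc18, a noncoding RNA (NR_152263, mm9 chromosome 13, 98521067 to 98530918), had the smallest adjusted p of the 20 genes at the ends of the ranking. It was at 39.5, 44.7 and 52.6 RPKM in BALB/c and 0.104, 0.158 and 0 RPKM in C57BL/6 (6.29 ± 0.14; limma, adjusted p = 2.03e-06). Of 9 tested genes known to vary between inbred strains 4 were called higher, Nnt, H2-Ea-ps, Acads and Cd59a, and none lower, against 16.3% and 13.8% of all genes. The count was 1 without C57BL/6 library 1 and 2 without C57BL/6 library 3. In the right legs 3 of the 9 were called higher and none lower, and Nnt (-0.34) and Acads (-0.18) were not among them. H2-Ea-ps, a class II histocompatibility gene that is defective in C57BL/6, had 137 reads in BALB/c and 0 in C57BL/6, at least 42.5-fold higher against a floor of 3 reads in the group. Gbp10, an interferon-induced GTPase that shares 84.1% of its words, was at 2.74, 4.85 and 4.06 RPKM against 0.0629, 0.191 and 0.0633 RPKM (2.83 ± 0.20; adjusted p = 0.000208). It is one of the interferon-induced genes, of which 3 of 23 were higher and 3 lower, close to the shares of all genes. B2m and H2-D1 were not called (adjusted p = 0.792 and 0.0561), and H2-K1 was listed with another transcript in each table and not tested. Nnt, the mitochondrial transhydrogenase that carries a deletion in some C57BL/6 substrains, was at 23.5, 48.6 and 28.3 RPKM in BALB/c and 11.4, 15.8 and 14.4 RPKM in C57BL/6 (1.18 ± 0.26; adjusted p = 0.0142; lost without C57BL/6 library 1). It shares 47.0% of its words. In the right legs its mean was 21.4 RPKM in BALB/c and 27.3 RPKM in C57BL/6, and it was not called (limma, adjusted p = 0.131). The change between the legs was called (1.51, limma, adjusted p = 0.0181). What part the deletion has in these values was not tested.

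**Figure D4:**
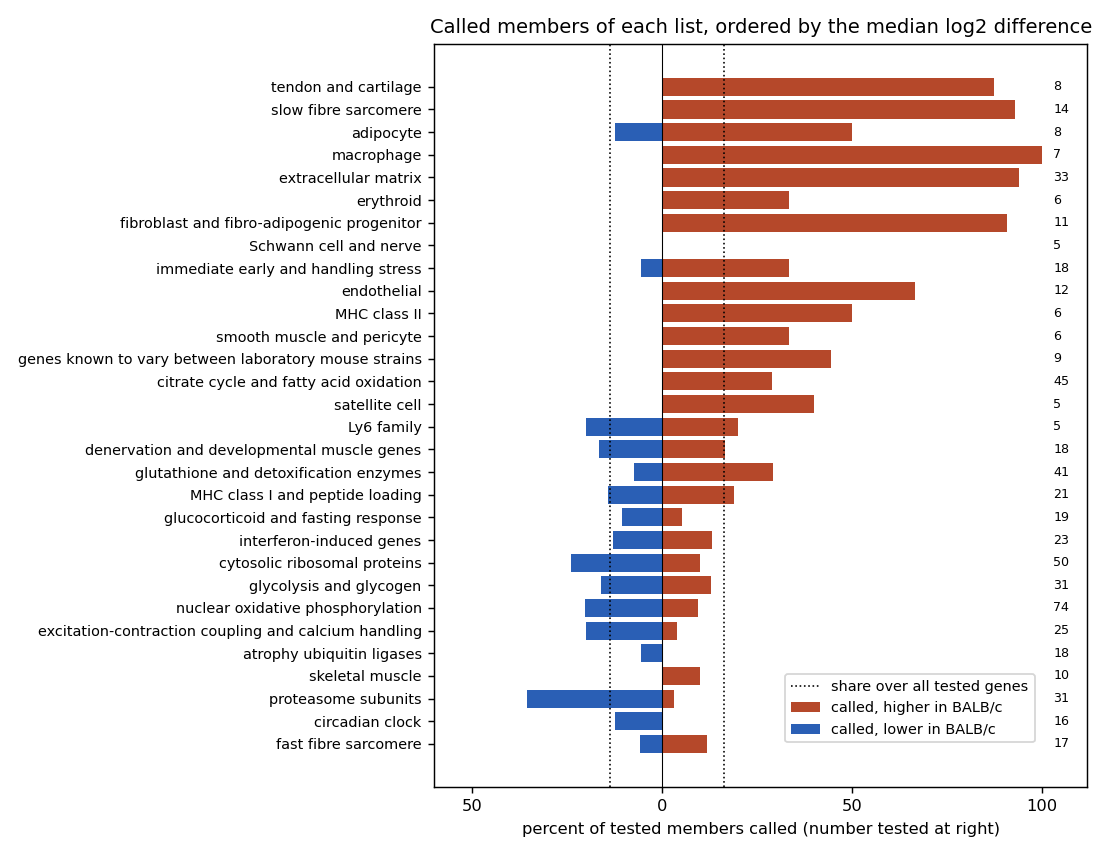
Percent of tested members called higher (right) or lower (left) in BALB/c, ordered by the list's median log2 difference, with the number tested at the right, for lists with at least 5 tested members; the adjoining oxidative muscle list, which repeats slow-fibre genes, is not drawn. Dotted lines mark the 16.3% and 13.8% of all tested genes called higher and lower. Among the lists drawn, tendon, slow-fibre, macrophage, matrix and fibroblast bars reach farthest to the right, and the proteasome bar farthest to the left.

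The same contrast was computed in the denervated right legs, where 2266 genes (24.1%) were called. Of the 615 genes of the stricter set, 309 were called in the right legs in the same direction and 8 in the opposite one. The difference between the legs was tested in 1 fit over all 12 libraries, rescaled together, and 808 genes (8.59%) were called. Left and right libraries share numbers in their titles, no label says that equal numbers mean 1 mouse, and this fit does not use the number. Tnni1 in the right legs was at 504, 641 and 472 RPKM in BALB/c and 141, 159 and 81.8 RPKM in C57BL/6: it was higher than in the left legs of both strains and the strain difference there was 2.12 (left minus right 4.0; limma, adjusted p = 0.0284). Tnnc1 and Myh7 had right differences of 2.49 and 1.92, and their change between legs lay near the threshold (adjusted p = 0.0760 and 0.0522; with the number as a block, 0.0476 and 0.0575). The collagen difference shrank in the right legs, to 1.10 for Col1a1 (left minus right 2.65; adjusted p = 0.00168) and 1.19 for Col1a2 (2.81; adjusted p = 0.00168). Myl4 reversed, at -1.58 on the left and 1.81 on the right (-3.42; adjusted p = 0.00279). Ndufa12, Carnmt1 and Gapdh had right differences of -2.69, -2.53 and -2.67 and their change between legs missed the threshold (adjusted p = 0.956, 0.214 and 0.865). Of 45 tested citrate cycle and fatty acid oxidation genes, 13 were called higher in BALB/c on the left, and 1 higher and 13 lower on the right. The 2 sets of 13 are not the same genes. Lpl, Idh2, Fabp3 and Acads, called higher on the left, were not called on the right (limma, adjusted p = 0.287, 0.286, 0.273 and 0.558). Over all genes 24.1% were called on the right in either direction.

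**Figure D5:**
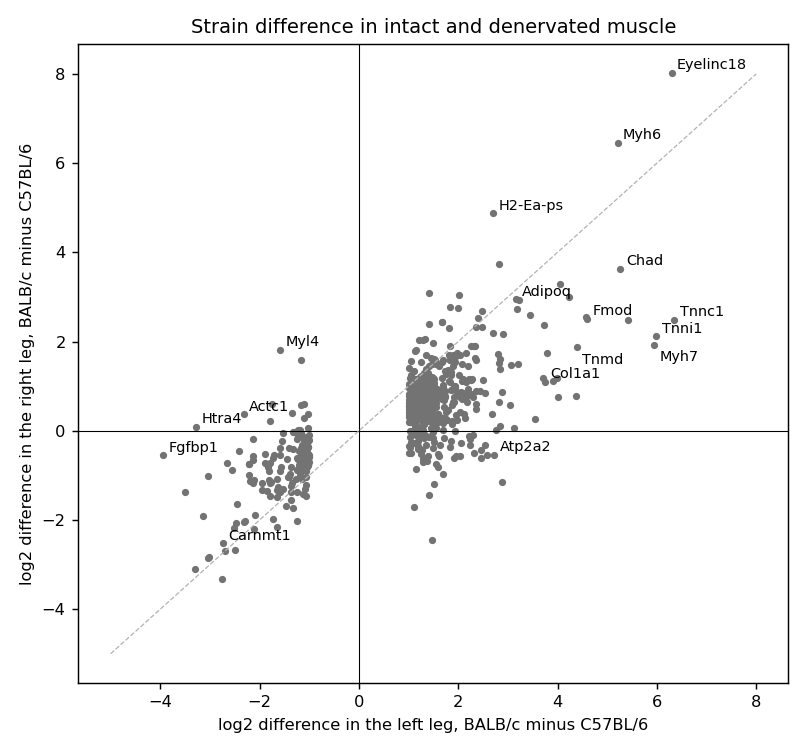
Strain difference (log2, BALB/c minus C57BL/6) in the left leg on the x axis and in the right leg on the y axis for the 615 genes of the stricter set, chosen on the left values; the dashed line marks equal differences. Tnnc1, Tnni1, Myh7 and Col1a1 lie below the line, Eyelinc18 and Myh6 above it, and Myl4 on the opposite side of 0.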

How the data were processed

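Poly(A) RNA was sequenced from gastrocnemius, with groups defined by the labelled strain and leg, 3 libraries each. The authors deposited RPKM values, 1 table per strain; per the file headers, HOMER counted exon reads on both strands against its mm9 annotation with 1 transcript per gene. The column names say FPKM. The submitters' processing notes name HISAT2, HOMER, DESeq2, GRCm38 and mm10; which build was aligned to is not given there, and positions are printed in mm9 as listed. Multiplying each value by length and scaling total gave whole reads within 0.1 read for 99.97% to 100.0% of values.

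Values were rescaled by median-of-ratios factors (0.9479 to 1.1133) and tested as log2(rescaled RPKM + 0.5), which understates changes of low genes, with limma 3.58.1 in R 4.3.3 (eBayes with trend, two-sided, Benjamini-Hochberg over 9410 genes). The fit was also run on simulated data with equal spread in both strains and few changed genes. These data differ in both respects, so that run does not show how reliable the calls here are. With 3 against 3 libraries a permutation test cannot go below 0.1. Sharing is the percent of a gene's distinct 50-base words that also occur in other genes, known for 9301 genes. It covers all GENCODE transcripts of the gene on both strands, not only the transcript counted. Genes named were the 10 largest differences in each direction among called genes without overlap, the 3 largest called members of each list per direction, fixed genes and called neighbours; others named were chosen after their values were seen, and a few genes falling under the rule are not reported. Members and lists were chosen with earlier results of these data known. Summed levels of a list take in every listed gene found in both tables, also those under the filter or listed with another transcript. Floors were 3 reads.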

Additional observations from a re-analysis of the deposited data

Results flagged for a closer look

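Of the genes reported from the ends of the ranking, 6 had a strain difference that changed between the legs (limma, adjusted p under 0.05 for the left difference minus the right difference, both legs rescaled together). The left difference was larger for Tnni1, by 4.0, and for Tnmd, by 2.67. The values were -3.75 for Fgfbp1, -1.74 for Rasd2 and -1.37 for Fam166a. These genes were lower in BALB/c on the left, so the left log2 difference was the larger one. For Fgfbp1 the right levels were 0 in all BALB/c libraries and 0.351, 0.178 and 0.182 RPKM in C57BL/6. All lie under the 0.5 added before taking logs, which limits the right log2 difference. Whether the fold difference of Fgfbp1 between the strains changed between the legs cannot be told from these values. For Eyelinc18 the value was -1.26, so the right difference was the larger one. These values come from 1 fit over both legs; with each leg rescaled alone the differences of Eyelinc18 were 6.29 on the left and 8.02 on the right, which need not subtract to the same value. Rod photoreceptor transcripts also appeared in right-leg libraries: their summed deposited level was 28.1, 27.7 and 17.3 RPKM in C57BL/6 and 5.42, 5.55 and 5.10 RPKM in BALB/c. The source of these reads was not tested.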

How the results depend on the processing

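No named gene changed direction under the 21 alternatives, 2 of which were chosen after seeing the data, as was the block across the legs below. The calls went from 2826 to 1644 with a filter of at least 5 RPKM (868 higher, 776 lower, 304 in the stricter set), which tests fewer genes, and to 919 with BALB/c library 1 alone (521 higher, 398 lower, 403 in the stricter set), a fit whose spread comes from the C57BL/6 libraries alone, with the lone library assumed to vary like them. Leaving out 1 library gave 1518 to 3215 calls, 886 to 1760 higher and 628 to 1455 lower, and the stricter set held 508 to 807 genes. With columns scaled to the same sum 2316 were higher and 426 lower, and with RPKM as deposited 738 were lower; the cause was not tested beyond the shift of the median gene given above. Of the 615 stricter genes, 537 to 615 kept their calls in each alternative other than the filter of 5 RPKM (305), BALB/c library 1 alone (466) and the genes with little shared sequence (480). Of the 132 named genes tested, 71 kept their side of the threshold in every alternative that tested them.

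The replicate number as a block gave 2803 calls. Deviations from the group mean correlated at r = 0.034, 0.15 and -0.052 for same-numbered libraries of the 2 strains. For differently numbered ones r was -0.127 to 0.09. So few pairs cannot tell whether the numbers pair the samples. Between the fits 2524 calls were shared. Across the legs, same-numbered libraries of a strain correlated at -0.007, 0.05 and 0.25 in BALB/c and 0.209, 0.128 and 0.024 in C57BL/6. Differently numbered ones lay at -0.189 to 0.123 in BALB/c and -0.204 to 0.114 in C57BL/6. Whether equal numbers mean 1 mouse cannot be told from this, and the labels do not tie the numbers to mice. With the number as a block 745 genes had a strain difference that changed between the legs, 566 of them among the 808.

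Depth limits statements on genes near 3 reads per library. Nerve, fat and blood markers set single libraries apart, and strain cannot be told apart from table.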
